A study of Mus musculus with 6 samples.

Results

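The genes described here are 10 that link blood vessels to white blood cells: 5 leukocyte adhesion genes of the vessel wall (Vcam1, Icam1, Icam2, Sele and Madcam1) and 5 genes of the NF-kB pathway that feed back on it (Nfkbia, Tnfaip3, Nfkb2, Relb and Birc3). They were chosen by name, and all 10 were found among the 23329 gene symbols counted. RNA sequencing was done on endothelial cells taken from the brains of C57BL/6 mice at 8 weeks of age by magnetic bead sorting, without culture. Of the 6 libraries, 3 came from mice labelled GLUT1EC-/-, in which the glucose carrier gene Slc2a1 is deleted in endothelial cells, and 3 from wild-type (WT) littermates. The promoter that drives the deletion, and whether the WT mice carried any of its alleles, are not given in the sources used here. The question for these genes was how their expression in brain endothelium differs between GLUT1EC-/- and WT mice.

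Leukocytes leave the blood in steps. Selectins such as E-selectin (Sele) slow the rolling cell, and the immunoglobulin-type molecules ICAM-1, ICAM-2, VCAM-1 and MAdCAM-1 then hold it through leukocyte integrins. In endothelium, cytokines such as TNF and interleukin 1 release NF-kB from its inhibitor, and NF-kB then turns on Vcam1, Icam1 and Sele together with genes that restrain the signal, among them Nfkbia and Tnfaip3. Icam2 is known as a constitutive gene of endothelium that does not need cytokines.

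None of the 9 members that passed the filter on low counts differed between the groups by edgeR (Benjamini-Hochberg adjusted p under 0.05), against 1.31% of all 14838 genes tested (0.863% higher and 0.445% lower). DESeq2 and limma-voom also called 0 of the 9, with 879 and 148 of all 14838 genes called. Madcam1 was removed by the filter on low counts. Vcam1 and Icam2 had lower levels in all 3 libraries labelled GLUT1EC-/- than in any WT library, at 0.687 and 0.709 times the WT level. They were the 2 of 9 members with an unadjusted p under 0.05, which 14.5% of all genes tested reached, and the 2 of 9 whose groups did not overlap, as was so for 22.9% of all genes (11.2% lower and 11.7% higher). Nfkbia, Tnfaip3, Birc3, Relb and Icam1 were at similar levels in the WT libraries and spread widely in the libraries labelled GLUT1EC-/-, from the lowest of the 6 in GLUT1EC-/- 3 to the highest in GLUT1EC-/- 2.

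NF-kB proteins bind DNA at short kB sites, and promoters are printed here because most of these genes are known NF-kB targets. RefSeq promoter windows on GRCm38, 250 bases before to 50 bases after a transcription start, were at hand for 7 members: Icam1, Sele, Madcam1, Nfkbia, Tnfaip3, Nfkb2 and Birc3. Each was searched on both strands for 2 spellings of a kB site, GGG followed by any 3 bases and TTCC, and GGAAATTCC, which can overlap each other. At least 1 match was found for 5 of the 7 genes, in 8 of their 10 windows, while 5.71% of all 32851 promoter windows held one. The stretches below run 5′ to 3′ on the gene's strand up to the base before the start, leave out bases in annotated exons, and have the matches in capitals. They lie at chr9:21015690-21015939 on the plus strand for Icam1, chr12:55492648-55492897 on the minus strand for Nfkbia and chr10:19015411-19015547 on the minus strand for the first window of Tnfaip3. Those of Madcam1 and Sele lie at chr10:79664309-79664558 and chr1:164047984-164048233, both on the plus strand.
Icam1: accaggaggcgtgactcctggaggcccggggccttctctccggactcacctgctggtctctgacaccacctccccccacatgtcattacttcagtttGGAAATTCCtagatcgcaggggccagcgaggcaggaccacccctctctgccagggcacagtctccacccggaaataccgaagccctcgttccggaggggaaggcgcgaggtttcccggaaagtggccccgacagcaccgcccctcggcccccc
Nfkbia: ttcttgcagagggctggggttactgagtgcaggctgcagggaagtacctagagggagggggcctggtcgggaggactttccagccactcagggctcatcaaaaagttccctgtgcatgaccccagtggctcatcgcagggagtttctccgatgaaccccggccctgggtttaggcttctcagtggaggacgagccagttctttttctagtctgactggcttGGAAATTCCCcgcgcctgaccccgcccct
Tnfaip3: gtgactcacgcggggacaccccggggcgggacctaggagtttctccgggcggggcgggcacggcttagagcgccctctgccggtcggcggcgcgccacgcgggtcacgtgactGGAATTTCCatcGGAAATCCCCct
Madcam1: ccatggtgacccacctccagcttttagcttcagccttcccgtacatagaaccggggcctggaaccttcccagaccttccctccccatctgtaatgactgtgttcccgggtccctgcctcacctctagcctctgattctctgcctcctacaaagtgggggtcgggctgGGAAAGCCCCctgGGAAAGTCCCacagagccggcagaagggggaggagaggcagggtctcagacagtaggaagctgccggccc
Sele: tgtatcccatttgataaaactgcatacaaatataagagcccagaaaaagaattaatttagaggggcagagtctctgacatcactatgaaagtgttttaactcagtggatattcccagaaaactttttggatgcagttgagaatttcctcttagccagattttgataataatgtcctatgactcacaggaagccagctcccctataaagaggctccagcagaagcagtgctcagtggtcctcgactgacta
Icam1 had its match at -153 to -145 from the start, and Nfkbia had both spellings on top of each other at -29 to -20. Tnfaip3 had matches at -24 to -16 and -12 to -3, and 1 inside an annotated exon at 33 to 42. Madcam1, almost silent in these cells, had matches at -83 to -74 and -70 to -61. Sele and Birc3 had no match to these letters in the window. In the first window of Nfkb2, where the matches lie in an annotated exon, 20 bases around each are shown, at chr19:46304694-46304713 and chr19:46304721-46304740 on the plus strand.
Nfkb2, first match: tcacgGGAATTCCCCccctc
Nfkb2, second match: cgaaaGGGGCTTTCCcggct
The middle and last windows of Nfkb2 share a match, and the middle window had another at -236 to -227. The other window of Tnfaip3 had 1 at -90 to -81. A match is a description of letters, and binding was not measured.

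Libraries held 31874662 to 39424384 counts. GLUT1EC-/- 2 stood apart from the other 5, with a mean correlation of log counts to its own group of 0.964, against 0.972 to 0.989, and a scaling factor of 0.884, against 1.01 to 1.05. Slc2a1 was at 3984, 4479 and 4172 CPM (counts scaled to library size with TMM factors) in WT 1 to 3 and at 3735, 5414 and 3893 CPM in the libraries labelled GLUT1EC-/- 1 to 3. Its level therefore did not separate the groups (log2 difference 0.05 ± 0.18, SE; adjusted p = 0.921 in edgeR), and directions are given between libraries as labelled. The 13 endothelial markers were all detected, with summed levels of 19280 to 20140 CPM in WT and 18490 to 21950 CPM in the libraries labelled GLUT1EC-/-. Microglia markers were also present, at a sum of 494 to 586 CPM in WT and 767 to 1591 CPM in the libraries labelled GLUT1EC-/-, and none of the 10 was at 0. Of these, 3 were called higher (Trem2, C1qb and C1qc), as were 1 of 9 fibroblast markers (Dcn) and 1 of 8 astrocyte markers (Gfap), whose summed levels were 383 to 526 and 101 to 119 CPM in WT and 360.0 to 662 and 137 to 164 CPM in the libraries labelled GLUT1EC-/-. Their part in the levels of the adhesion and feedback genes was not tested. In bulk RNA, fewer cells of a type and less RNA per cell cannot be told apart.

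Vcam1 (chr3:116109949-116129688, minus strand, on GRCm38 as all positions here, from GENCODE M21), which encodes the ligand of the integrin alpha 4 beta 1, was at 352, 468 and 283 CPM in WT 1 to 3 and at 281, 272 and 204 CPM in GLUT1EC-/- 1 to 3. All 3 libraries labelled GLUT1EC-/- were below every WT library, though WT 3 and GLUT1EC-/- 1 were nearly level. The means were 367 ± 93.5 and 252 ± 42.2 CPM (SD, n = 3 each), a log2 difference of -0.54 ± 0.21 (SE; adjusted p = 0.293 in edgeR). The 95% interval of the fold was 0.490 to 0.964, not adjusted for the number of genes. Within the animals numbered in the 200s (2 WT, 1 GLUT1EC-/-) the log2 ratio of means was -0.54, and within those in the 500s (1 WT, 2 GLUT1EC-/-) it was -0.25. With 1 library left out in turn the difference ran from -0.70 to -0.33, the smallest without WT 2. An antisense gene overlaps exons of Vcam1 in GENCODE M21, as one does for Icam1, and the strand setting of the counting is not given in the sources used here.

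Icam2 (chr11:106377656-106388075, minus strand), the ICAM of resting endothelium and a ligand of the leukocyte integrin chain alpha L, was at 161, 161 and 142 CPM in WT 1 to 3 and at 119.7, 78.1 and 131 CPM in GLUT1EC-/- 1 to 3. The groups did not overlap, and GLUT1EC-/- 2 was the lowest library. The means were 154.8 ± 10.9 and 109.7 ± 28.0 CPM (SD, n = 3 each), a log2 difference of -0.50 ± 0.20 (SE; adjusted p = 0.298 in edgeR) with a 95% interval of the fold of 0.518 to 0.971. By animal number, the log2 ratio of means was -0.43 among the 200s and -0.44 among the 500s. With 1 library left out in turn the difference ran from -0.65 to -0.31, the smallest without GLUT1EC-/- 2.

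Icam1 (chr9:21015985-21028817, plus strand), the cytokine-induced ICAM and the adhesion member with the highest level per length in these cells, went the other way in GLUT1EC-/- 2. It was at 1397, 1747 and 1380 CPM in WT 1 to 3 and at 1328, 2345 and 1086.5 CPM in GLUT1EC-/- 1 to 3. Both the highest and the lowest of the 6 values belonged to libraries labelled GLUT1EC-/-. The log2 difference was 0.07 ± 0.28 (SE; adjusted p = 0.919 in edgeR), with a 95% interval of the fold of 0.677 to 1.63. Without GLUT1EC-/- 2 it was -0.33 (edgeR adjusted p = 0.278), with groups that did not overlap, as was so for 37.2% of all genes in that setting.

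Sele (chr1:164048234-164057677, plus strand) was the most variable tested member. Its level was 104, 158 and 64.9 CPM in WT 1 to 3 and 76.3, 139 and 39.1 CPM in GLUT1EC-/- 1 to 3, so that the groups overlapped across most of their range. The log2 difference was -0.36 ± 0.46 (SE; adjusted p = 0.747 in edgeR), and the 95% interval of the fold ran from 0.377 to 1.61. It was -0.92 without GLUT1EC-/- 2 and 0.01 without WT 2. Madcam1 (chr10:79664559-79668537, plus strand) encodes a vascular address for lymphocytes of the gut. It had 6, 13 and 5 counts in WT 1 to 3 and 5, 10 and 7 counts in GLUT1EC-/- 1 to 3. These are levels of 0.123 to 0.380 CPM in WT and 0.131 to 0.299 CPM in the libraries labelled GLUT1EC-/-, and a difference was not detectable at this depth (log2 difference -0.16 ± 0.70, SE, with no filter; adjusted p = 0.934 in edgeR).

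**Figure D1:**
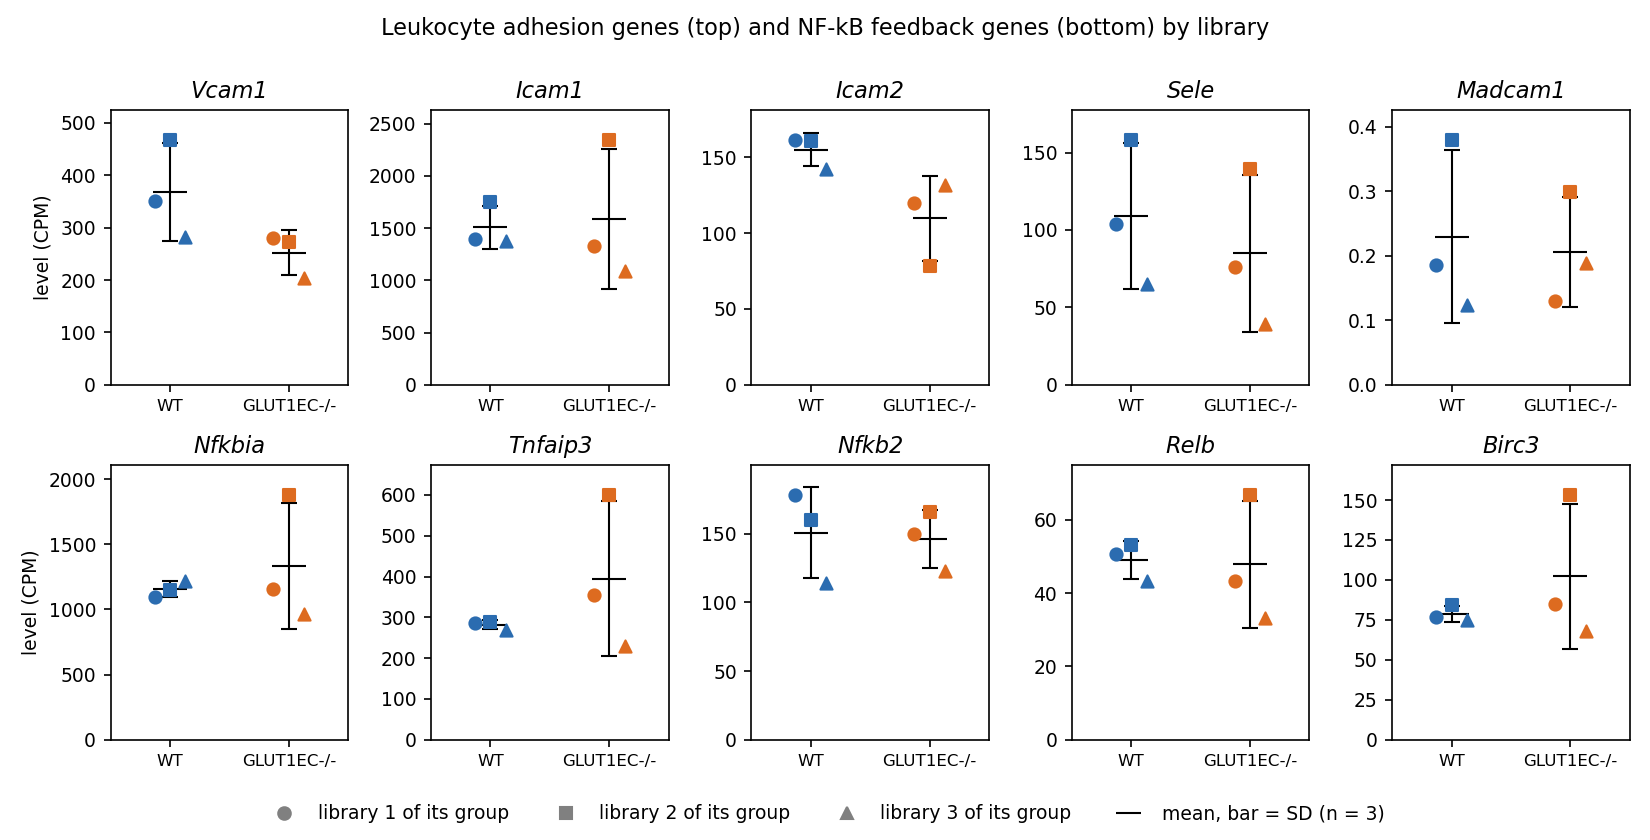
Level of each gene in CPM (vertical axes, from 0, on a scale of its own in each panel) in the 3 WT and 3 GLUT1EC-/- libraries; points are libraries, horizontal bars are means and vertical bars are SD. Vcam1 and Icam2 are lower in all GLUT1EC-/- libraries, and for Icam1, Nfkbia, Tnfaip3, Relb and Birc3 GLUT1EC-/- 2 is the highest and GLUT1EC-/- 3 the lowest point.

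Among the feedback genes, Nfkbia (chr12:55489410-55492647, minus strand) encodes IkBa, the inhibitor that NF-kB itself induces and that returns it to the cytoplasm. It was at 1098, 1149.9 and 1220.0 CPM in WT 1 to 3 and at 1156, 1882 and 968 CPM in GLUT1EC-/- 1 to 3. Its WT libraries were close together, and the libraries labelled GLUT1EC-/- lay within, above and below them. The log2 difference was 0.21 ± 0.24 (SE; adjusted p = 0.722 in edgeR), with a 95% interval of the fold of 0.790 to 1.69, and it was -0.13 without GLUT1EC-/- 2.

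Tnfaip3 (chr10:19000910-19015657, minus strand), a ubiquitin-editing enzyme that stops signalling below the TNF receptor, had the largest log2 fold change of the feedback genes. It was at 286, 289.7 and 269.6 CPM in WT 1 to 3 and at 355, 601 and 229 CPM in GLUT1EC-/- 1 to 3. GLUT1EC-/- 1 and 2 were above every WT library and GLUT1EC-/- 3 below every one. The log2 difference was 0.49 ± 0.30 (SE; adjusted p = 0.51 in edgeR), with a 95% interval of the fold of 0.864 to 2.27. It was 0.05 without GLUT1EC-/- 2 and 0.76 without GLUT1EC-/- 3 (edgeR adjusted p = 0.924 and 0.124).

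Birc3 (chr9:7848699-7873186, minus strand), a ubiquitin ligase of the TNF receptor complex that also limits the non-canonical pathway, was at 76.8, 84.0 and 75.1 CPM in WT 1 to 3 and at 85.0, 153 and 68.1 CPM in GLUT1EC-/- 1 to 3. GLUT1EC-/- 2 stood alone above the other 5 libraries. The log2 difference was 0.38 ± 0.27 (SE; adjusted p = 0.572 in edgeR), and -0.04 without GLUT1EC-/- 2. Relb (chr7:19606217-19629438, minus strand), the transcription-activating partner in the non-canonical pathway, was at 50.8, 53.2 and 43.3 CPM in WT 1 to 3 and at 43.4, 66.9 and 33.2 CPM in GLUT1EC-/- 1 to 3. Its log2 difference was -0.04 ± 0.24 (SE; adjusted p = 0.953 in edgeR), with the WT range inside that of the libraries labelled GLUT1EC-/-.

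Nfkb2 (chr19:46304320-46312385, plus strand), the DNA-binding partner of RelB, did not share this spread. It was at 178.5, 159.7 and 114 CPM in WT 1 to 3 and at 149.5, 165.5 and 123 CPM in GLUT1EC-/- 1 to 3, and all 3 libraries labelled GLUT1EC-/- fell inside the WT range. The log2 difference was -0.05 ± 0.19 (SE; adjusted p = 0.927 in edgeR), and the 95% interval of the fold was 0.712 to 1.32. Exons of Nfkb2 overlap those of the coding gene Psd on the other strand, so its count is uncertain if strand was not used in counting.

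**Figure D2:**
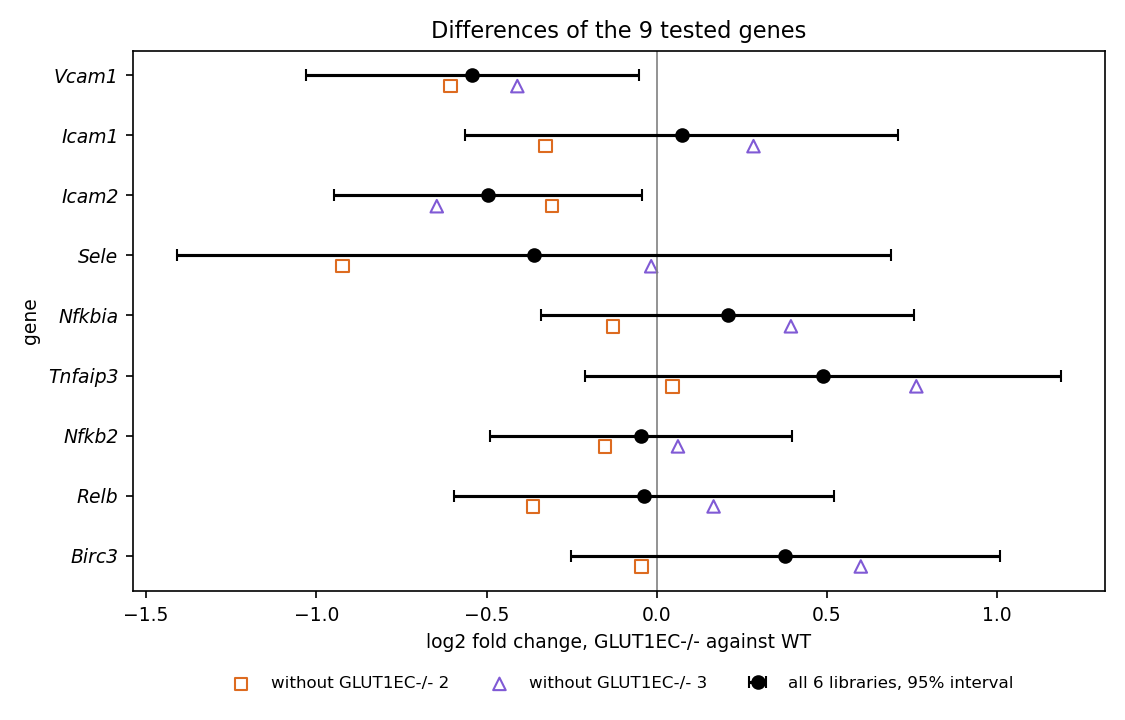
Log2 fold change of the 9 tested genes, GLUT1EC-/- against WT (horizontal axis), with its 95% interval (black) and the value without GLUT1EC-/- 2 (orange squares) or GLUT1EC-/- 3 (purple triangles). The intervals of Vcam1 and Icam2 lie below 0 before adjustment for the number of genes, and Icam1, Nfkbia and Birc3 change sign without GLUT1EC-/- 2.

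The 5 genes Icam1, Nfkbia, Tnfaip3, Relb and Birc3 had their highest level in GLUT1EC-/- 2 and their lowest in GLUT1EC-/- 3, which was so for 8.71% of all genes tested. GLUT1EC-/- 2 alone was the highest library for 33.3% of all genes and GLUT1EC-/- 3 alone the lowest for 15.6%. With counts scaled to library size alone, the same 5 of 9 members had this order. The pattern was picked out after the values were seen and has no test. Against the mean of the other 5 libraries, the log2 level in GLUT1EC-/- 2 was 1.07 for Tnfaip3, 0.98 for Birc3, 0.76 for Icam1, 0.75 for Nfkbia and 0.58 for Relb. The median of this log2 level was 0.09 over 9245 genes that averaged 10 CPM or more. Sele was also above the mean of the other libraries there (0.66), while Vcam1 (-0.22) and Icam2 (-0.87) were below it. In GLUT1EC-/- 3, Sele was the furthest below the mean of the others, at -1.47.

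The spread within the groups showed the same contrast. The SD of Tnfaip3 was 3.81% of its mean in WT and 47.9% in the libraries labelled GLUT1EC-/-. For Birc3 these values were 6.05% and 44.2%, and for Nfkbia 5.32% and 36.1%. Icam1 went from 13.7% to 42.1%, Relb from 10.5% to 36.1% and Icam2 from 7.04% to 25.5%. These 6 of 9 members had at least 3 times the WT spread, against 28.9% of all genes tested and 32% of the 9245 genes that averaged 10 CPM or more. A larger spread in the libraries labelled GLUT1EC-/- was common: 75% of those 9245 genes had it, as did 7 of the 9 members. The median ratio of the spreads over those genes was 1.92. Vcam1 and Nfkb2 had less spread in the libraries labelled GLUT1EC-/-, at 16.7% against 25.5% and 14.6% against 21.8%. With 3 libraries a group, these spreads are descriptions.

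**Figure D3:**
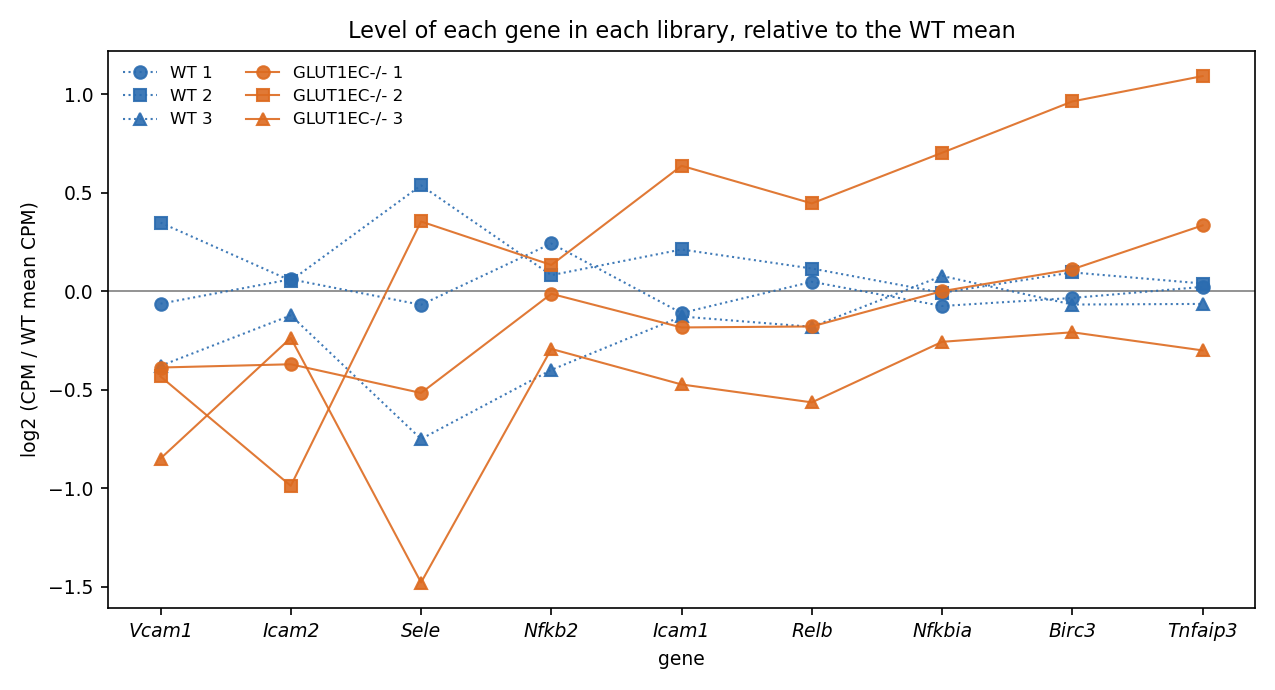
Level of the 9 tested genes (horizontal axis) in each of the 6 libraries, as log2 of CPM over the WT mean (vertical axis); lines only join the points of a library, dotted for WT. GLUT1EC-/- 2 is above all others for Icam1, Relb, Nfkbia, Birc3 and Tnfaip3 and lowest for Icam2, and GLUT1EC-/- 3 is lowest for Sele and Vcam1.

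Other cell types and library measures differed between the same libraries. The 8 oligodendrocyte markers summed to 3265 CPM in GLUT1EC-/- 2, 1490 and 1246 CPM in GLUT1EC-/- 1 and 3 and 764 to 797 CPM in WT. Most of that sum was 1 gene, Mal, at 2901 CPM in GLUT1EC-/- 2, while 7 of the 8 markers were lower by value in the libraries labelled GLUT1EC-/- and Mbp was at 316 CPM in GLUT1EC-/- 2 and 261 to 334 CPM in WT. Erythroid markers (5 of 6 in the files, with Slc4a1 at 0 in 3 libraries) summed to 103.9 CPM in GLUT1EC-/- 2, against 345 to 1068 CPM in the other 5. Lymphocyte markers (12 of 12 detected in every library) were lowest in GLUT1EC-/- 2 and 3, at sums of 14.9 and 13.3 CPM against 27.1 to 34.2 CPM in the other 4. Microglia markers, highest in GLUT1EC-/- 3 at 1591 CPM, were lowest of their group in GLUT1EC-/- 2 at 767 CPM. The part of these differences in the order of the libraries was not tested.

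The labels give no sex, and the counts placed 1 library of each group apart. Xist, made from the inactive X chromosome of females, was at 281 to 464 CPM in 4 libraries and at 0.443 and 0.623 CPM in WT 3 and GLUT1EC-/- 3. The Y-linked gene Ddx3y was at 83.2 and 94.1 CPM in WT 3 and GLUT1EC-/- 3. These 2 libraries thus read as male. Vcam1, Icam1, Sele, Tnfaip3, Nfkb2, Relb and Birc3, 7 of 9 members, had the lowest level of their group in both of them, against 17.3% of all genes tested. This order was noticed after the values were seen and has no test. With 1 male a group, sex and the single animal cannot be told apart. Between the female libraries the log2 ratio of GLUT1EC-/- to WT was 0.73 for Tnfaip3, 0.57 for Birc3 and 0.43 for Nfkbia, and between the males it was -0.24, -0.14 and -0.33. For Vcam1 it was -0.57 between females and -0.47 between males, and for Icam2 -0.70 and -0.11. With sex as a term, 0 of 9 members were called by edgeR.

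Levels of different genes were compared per kilobase of annotated exon in WT. Nfkbia led with 718 ± 38.2 CPM per kb (SD, n = 3), followed by Icam1 with 346 ± 47.5 and Icam2 with 81.3 ± 5.72. These neighbours did not overlap. Vcam1 (41.4 ± 10.5), Tnfaip3 (37.3 to 40.1 over the 3 libraries), Sele (37.4 ± 16.1) and Nfkb2 (32.9 ± 7.18) followed with ranges that overlapped, so that their order is not resolved. Birc3 (15.7 ± 0.95) and Relb (12.6 ± 1.32) came next without overlapping, and Madcam1 (0.16 ± 0.093) was last. In the libraries labelled GLUT1EC-/-, Nfkbia was at 829 ± 299.8 and Icam1 at 364 ± 153 CPM per kb without overlap, while Icam2 (57.6 ± 14.7) and Tnfaip3 (54.7 ± 26.2) overlapped.

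Ratios of counts within a library do not depend on scaling between libraries. For every 100 counts of Icam1 there were 25.2, 26.8 and 20.5 counts of Vcam1 in WT 1 to 3, and 21.2, 11.6 and 18.8 in the libraries labelled GLUT1EC-/- 1 to 3. GLUT1EC-/- 2 had the least Vcam1 and also the least Icam2 for its Icam1, with 3.33 counts of Icam2 per 100 of Icam1 against 9.02 to 12.1 in the other 5 libraries. Birc3 stayed nearer to Nfkbia, with 6.15 to 7.31 counts per 100 of Nfkbia in WT and 7.04 to 8.15 in the libraries labelled GLUT1EC-/-. For Tnfaip3 this ratio was 22.1 to 26.1 in WT and 30.7, 31.9 and 23.7 in GLUT1EC-/- 1 to 3.

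The other genes of the NF-kB pathway, 47 from ligands to inhibitors, were all tested. None was called with all 6 libraries (0 of 47, edgeR adjusted p under 0.05), against 1.31% of all genes tested. An unadjusted edgeR p under 0.05 was reached by 4 of 47, against 14.5% of all genes tested. DESeq2 called 1 of the 47, Tlr4, against 879 of all 14838 genes, and limma-voom called 0. Their median log2 fold change was 0.09, against 0.01 over all genes tested, with 28 higher and 19 lower by value. Of the 47, 25 had their highest level in GLUT1EC-/- 2, 21 had their lowest in GLUT1EC-/- 3 and 13 had both. Over all genes tested the shares were 33.3%, 15.6% and 8.71%, in the same order. With GLUT1EC-/- 2 left out, edgeR called 3 of the 47, Il1b and Bcl3 lower and Tlr4 higher, against 5.73% of all genes tested.

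Among the ligands, Tnf was at 30.5 to 48.8 CPM in WT and 37.4 to 47.5 CPM in the libraries labelled GLUT1EC-/-. Il1b, mostly a product of myeloid cells, was at 10.1, 15.5 and 9.07 CPM in WT 1 to 3 and at 4.23, 8.87 and 3.36 CPM in GLUT1EC-/- 1 to 3, a log2 difference of -1.08 (adjusted p = 0.245 in edgeR). Among the receptors, Il1r1, the signalling receptor of interleukin 1, was at 251, 301 and 372 CPM in WT 1 to 3 and at 451, 739.5 and 411 CPM in GLUT1EC-/- 1 to 3. Its groups did not overlap (log2 difference 0.79 ± 0.25, SE; adjusted p = 0.194 in edgeR). This was so for 4 of the 47 genes, 2 lower and 2 higher, against 22.9% of all genes tested. Tlr4, the endotoxin receptor, was at 5.91 to 6.22 CPM in WT and 7.59 to 13.5 CPM in the libraries labelled GLUT1EC-/- (log2 difference 0.81, adjusted p = 0.161 in edgeR), and its highest value, like that of the microglia markers, was in GLUT1EC-/- 3.

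None of the kinase and the NF-kB subunits named next was called by edgeR. Ikbkb, the kinase that marks IkBa for destruction, was at 120 ± 7.43 and 111 ± 4.03 CPM (SD, n = 3 each). Nfkb1, the DNA-binding subunit of the canonical pathway, was at 175 ± 20.3 and 171 ± 12.4 CPM. Rela, its activating partner, was at 232, 235 and 238 CPM in WT 1 to 3 and at 207, 339 and 177 CPM in GLUT1EC-/- 1 to 3, highest and lowest in the same libraries as Nfkbia. Nfkbiz, an inducible nuclear inhibitor and the most abundant of these 47 genes, was at 435 to 549 CPM in WT and at 504, 784 and 483 CPM in GLUT1EC-/- 1 to 3 (log2 difference 0.28, adjusted p = 0.583 in edgeR).

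**Figure D4:**
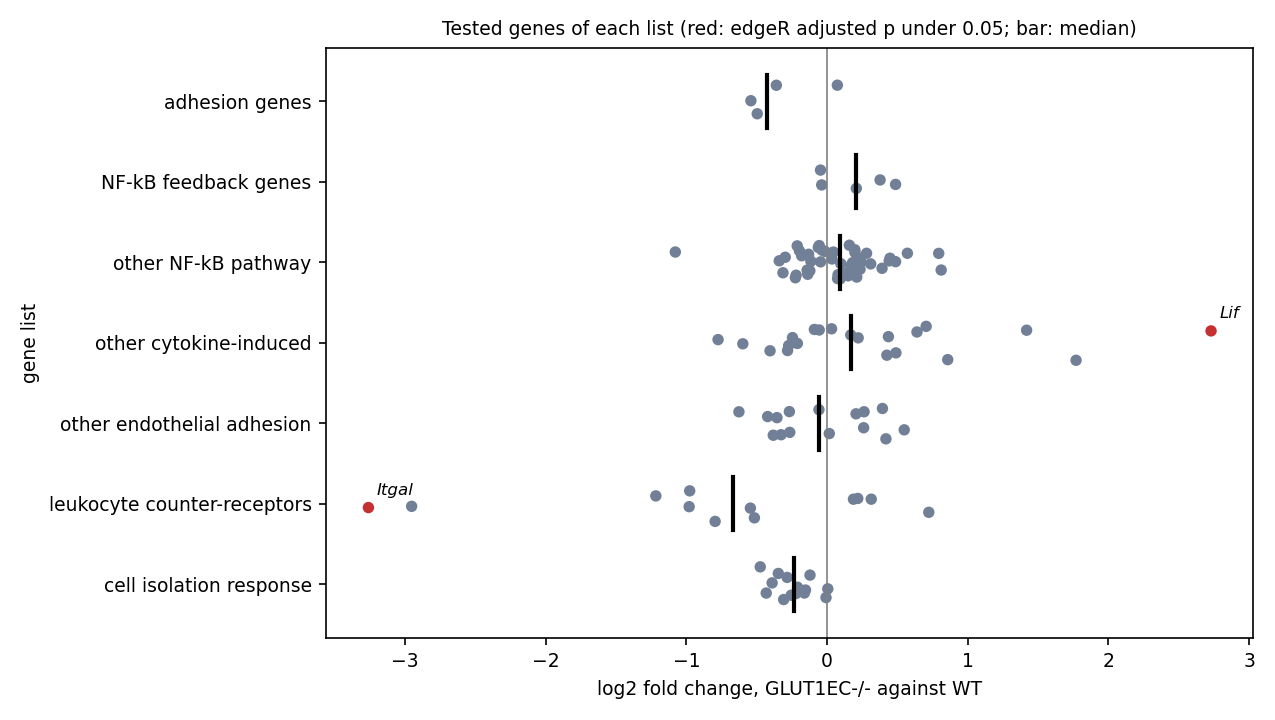
Log2 fold change, GLUT1EC-/- against WT (horizontal axis), of each tested gene by list (vertical axis, jittered), with the median as a bar and calls in red. Itgal and Lif are the only red points, and the adhesion and feedback genes lie between -0.54 and 0.49.

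Of 15 other endothelial adhesion genes tested, 0 were called by edgeR, against 1.31% of all genes, and the median log2 fold change was -0.06. An unadjusted edgeR p under 0.05 was reached by 4 of 15, against 14.5% of all genes tested. DESeq2 called 1 of the 15, Mcam, against 879 of all 14838 genes, and limma-voom 0. In 8 of the 15 the groups did not overlap, 4 lower and 4 higher, against 22.9% of all genes. Podxl and Pecam1, both abundant sialylated surface proteins of endothelium, had groups that did not overlap, in opposite directions. Podxl was at 2448, 2209 and 2808 CPM in WT 1 to 3 and at 2073, 1774 and 1985 CPM in GLUT1EC-/- 1 to 3 (log2 difference -0.36, adjusted p = 0.322 in edgeR). Pecam1 was at 1616 to 1810.0 CPM in WT and 1834 to 2418 CPM in the libraries labelled GLUT1EC-/- (log2 difference 0.26, adjusted p = 0.491 in edgeR). Selp, the selectin stored with von Willebrand factor, was at 75.9, 119.8 and 42.6 CPM in WT 1 to 3 and at 123, 127 and 63.2 CPM in GLUT1EC-/- 1 to 3. Its WT order was that of Sele, highest in WT 2 and lowest in WT 3.

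The counter-receptors are the leukocyte's side of these contacts, though Itgb1, Cd44 and Glg1 are also made by endothelium. Of 12 tested, 1 was called lower and 0 higher by edgeR, against 0.445% and 0.863% of all genes tested. The median log2 fold change was -0.67, and 6 of 12 reached an unadjusted edgeR p under 0.05, against 14.5% of all genes. In 5 of the 12 the groups did not overlap, 4 lower and 1 higher, against 22.9% of all genes. The gene called lower was Itgal, the alpha chain of the integrin that binds ICAM-1 and ICAM-2. It was at 55.7, 89.1 and 26.7 CPM in WT 1 to 3 and at 10.02, 4.12 and 3.68 CPM in GLUT1EC-/- 1 to 3 (log2 difference -3.26 ± 0.53, SE; adjusted p = 0.0316 in edgeR). It was lost as a call when any library but GLUT1EC-/- 3 was left out, with log2 fold changes of -2.79 to -3.87 and adjusted p of 0.0515 to 0.18. Lymphocyte markers, of which 1 of 12 was called lower, summed to 28.7 to 34.2 CPM in WT and 13.3 to 27.2 CPM in the libraries labelled GLUT1EC-/-, and monocyte and macrophage markers (0 of 10 called) to 169 to 249.5 and 133 to 221 CPM, and their part in the Itgal result was not tested. Its partner chain Itgb2 was at 48.3, 83.2 and 38.8 CPM in WT 1 to 3 and at 32.8, 18.7 and 46.5 CPM in GLUT1EC-/- 1 to 3, so that its groups overlapped. Spn, the leukocyte sialoglycoprotein, was at 10.2 to 22.8 CPM in WT and 0.747 to 3.84 CPM in the libraries labelled GLUT1EC-/- (log2 difference -2.95, adjusted p = 0.0547 in edgeR). Itga4, the chain that binds VCAM-1 and also MAdCAM-1, was at 42.2 ± 15.6 and 29.5 ± 3.23 CPM (SD, n = 3 each; log2 fold change -0.52, edgeR adjusted p = 0.415). Itgb7, its partner for MAdCAM-1, was at 8.60 to 9.29 CPM in WT and at 11.4, 3.17 and 3.65 CPM in GLUT1EC-/- 1 to 3.

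Of 21 other genes that cytokines induce in endothelium, 1 was called higher and 0 lower by edgeR, against 0.863% and 0.445% of all genes tested. The median log2 fold change was 0.17, and 5 of 21 reached an unadjusted edgeR p under 0.05, against 14.5% of all genes. In 5 of the 21 the groups did not overlap, 5 higher and 0 lower, against 22.9% of all genes (11.7% higher and 11.2% lower). Lif, a cytokine of the interleukin 6 family, went from 2.38, 1.26 and 0.961 CPM in WT 1 to 3 to 9.01, 15.3 and 6.09 CPM in GLUT1EC-/- 1 to 3 (log2 difference 2.73 ± 0.45, SE; adjusted p = 0.0333 in edgeR). The call was lost with limma-voom (log2 2.73, adjusted p = 0.0501) and with the number series as a term (log2 2.86, edgeR adjusted p = 0.131). It was also lost without any 1 of WT 1, WT 2, WT 3 or GLUT1EC-/- 1 (log2 2.48 to 3.18, edgeR adjusted p = 0.0828 to 0.189). DESeq2 called 4 of the 21 (Lif, Ccl2, F3 and Il6), against 879 of all 14838 genes. Ccl2, a chemokine for monocytes, was at 6.87, 11.5 and 10.5 CPM in WT 1 to 3 and at 19.8, 40.3 and 17.1 CPM in GLUT1EC-/- 1 to 3 (log2 difference 1.42 ± 0.35, SE; adjusted p = 0.107 in edgeR). Il6 was at 10.4, 10.96 and 5.57 CPM in WT 1 to 3 and at 18.4, 59.2 and 14.3 CPM in GLUT1EC-/- 1 to 3 (edgeR adjusted p = 0.176), and F3, tissue factor, at 3.33 to 3.45 and 5.50 to 6.71 CPM (edgeR adjusted p = 0.0973). Of the 21, 13 were highest in GLUT1EC-/- 2, against 33.3% of all genes tested. Of these 13, 7 were also lowest in GLUT1EC-/- 3, and 8.71% of all genes tested had both. Without GLUT1EC-/- 2, 7 of the 21 were called, 4 higher and 3 lower, when 5.73% of all 15053 genes tested were called (3.52% higher and 2.21% lower).

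Genes that respond when tissue is dissociated were abundant in every library. Their 14 members summed to 31900 to 37880 CPM in WT and to 24400, 34570 and 25610 CPM in GLUT1EC-/- 1 to 3. None was called with all libraries (0 of 14 by edgeR, DESeq2 and limma-voom). An unadjusted edgeR p under 0.05 was reached by 1 of 14, against 14.5% of all genes tested. Without GLUT1EC-/- 2, 5 of 14 were called lower by edgeR, as were 2.21% of all genes. The median log2 fold change was -0.24, with 13 lower by value. Egr1 was at 6158 ± 929 and 4431 ± 357 CPM and Fosb at 5729 ± 893 and 5151 ± 1252 CPM (SD, n = 3 each; edgeR adjusted p = 0.222 and 0.762). Within the libraries labelled GLUT1EC-/- the sum was highest in GLUT1EC-/- 2, and over all 6 libraries it was highest in WT 3. The 5 feedback genes summed to 1690, 1736 and 1722 CPM in WT 1 to 3 and to 1790, 2868 and 1421 CPM in GLUT1EC-/- 1 to 3. The part of the dissociation response in the levels of the NF-kB genes was not tested.

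By Pearson's r of log2 CPM over the 6 libraries, the genes most like Vcam1 among 8857 others included Ube2h (r = 0.987) and Il6st (r = 0.978). Those most like Nfkbia were Ccdc90a (r = 0.998), Smad1 (r = 0.997) and Prdm4 (r = 0.997). These values only describe 6 libraries with shared scaling. An r of at least 0.95 was reached by 18 genes with Vcam1 and by 319 with Nfkbia. Smad1, a signal carrier of BMP receptors, was at 49.9, 51.8 and 60.4 CPM in WT 1 to 3 and at 55.2, 111 and 42.6 CPM in GLUT1EC-/- 1 to 3, again highest in GLUT1EC-/- 2. Il6st, the shared receptor chain of the interleukin 6 family, was at 477, 549 and 408 CPM in WT 1 to 3 and at 429, 424 and 380 CPM in GLUT1EC-/- 1 to 3.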

How the data were processed

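Per the labels' protocols, RNA went into stranded TruSeq mRNA libraries, sequenced from one end (100 bp). STAR, featureCounts and GRCm38 are named in the submitters' processing notes, while versions, annotation and strand setting are not given in the sources used here. What the authors deposited is a table of raw counts by gene symbol for each library. Groups follow the genotype label, with 3 libraries each. Each library has an animal number of its own in the labels.

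Counts were fitted with edgeR 4.0.16 (quasi-likelihood F test, R 4.3.3) on the 6 libraries, with a term for genotype. Scaling was TMM, dispersion was robust, and low genes were removed by filterByExpr (at least 10 counts, 15 in total). P-values were adjusted by Benjamini-Hochberg over 14838 genes, at a threshold of 0.05. Standard errors were taken from the F statistic as the log2 difference over its square root. CPM carry the TMM factors. Exon lengths and overlaps come from GENCODE M21 (GRCm38) and promoter sequences from RefSeq (GRCm38). The fit was tested on simulated data with known changes.

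The members, lists and tests were chosen with earlier results of these data known. Named genes are Slc2a1, the members, up to 3 called genes of each list or its 2 most abundant, and the 3 genes most like Vcam1 and Nfkbia, of which 1 is not reported here. Xist, Ddx3y, Mal, Mbp, Slc4a1, Tnf, Il1b, Tlr4, Rela, Nfkb1, Ikbkb, Mcam, Selp, Itgb2, Itga4, Itgb7, Spn, Ccl2, Il6 and F3 were named for their roles after their values were seen. Itgam and Bcl3 were named for their calls without GLUT1EC-/- 2. Of the listed genes, Cd99, Ly6g and Hbb-bt were not matched to a symbol. Alternatives were other scalings (RLE, upper quartile, library size alone), DESeq2 1.42.0, limma-voom (limma 3.58.1), non-robust dispersion, other filters, a term for the animal number series, omission of each library and, added after seeing the data, sex read from Xist and Ddx3y as a term.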

Additional observations from a re-analysis of the deposited data

How the results depend on the processing

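No member was called under any of 16 alternatives, and all kept the direction of Vcam1, Icam2 and Tnfaip3. With 1 library left out in turn, 0 members were called, 2 to 4 of 9 had groups that did not overlap (a count added after seeing the data), and 0 to 862 of all genes were called, against 194. Of all genes, 27.2% to 39.3% did not overlap under these omissions, and 39.3% in the setting with 4 members, without GLUT1EC-/- 3. Over such omissions the calls were 0 to 3 of the NF-kB pathway, 0 of other endothelial adhesion, 0 to 1 of counter-receptors, 0 to 7 of cytokine-induced and 0 to 5 of cell isolation genes. The counter-receptor called was not always the same. It was Spn, lower, without GLUT1EC-/- 1, Itgam, higher, without GLUT1EC-/- 2 and Itgal, lower, without GLUT1EC-/- 3. DESeq2 called 879 genes, and 1, 1, 2 and 4 of the NF-kB pathway, other adhesion, counter-receptor and cytokine-induced lists. The number series as a term left 14 genes and 0 cytokine-induced ones, sex as a term left 113 genes, limma-voom left 0 cytokine-induced genes, and no filter gave 2 counter-receptors. The cause was not tested. Log2 differences turned as follows. With library size alone, Icam1 was at -0.010, Slc2a1 at -0.020 and Rela at -0.044. With upper-quartile factors, Slc2a1 was at -0.00093 and Rela at -0.020, and with limma-voom Rela was at -0.021. With the number series, Nfkb2 was at 0.079, Slc2a1 at -0.011, Tnf at -0.017, Rela at -0.030 and Nfkb1 at 0.048. With 1 library left out, the ranges were -0.33 to 0.28 for Icam1, -0.92 to 0.0065 for Sele, -0.13 to 0.39 for Nfkbia, -0.21 to 0.083 for Nfkb2, -0.36 to 0.17 for Relb and -0.045 to 0.60 for Birc3. They were -0.15 to 0.14 for Slc2a1, -0.073 to 0.27 for Tnf, -0.30 to 0.21 for Rela and -0.13 to 0.012 for Nfkb1. The low ends of Icam1, Sele, Nfkbia, Relb, Birc3, Slc2a1 and Rela came without GLUT1EC-/- 2. No paired analysis was possible because the labels number each animal on its own, with no number in both groups, and 1 to 3 only name the libraries here in accession order. At this depth and number of animals, a member without a call may still differ within its interval.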
